A study of Saccharomyces cerevisiae with 14 samples.

Results

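The loss of a histone methyltransferase was set beside the loss of the demethylase that acts on the same residue in budding yeast (Saccharomyces cerevisiae). For each probe set, the set1 deletion change (set1 deletion minus WT-set1 arrays) was compared with the jhd2 deletion change (jhd2 deletion minus WT jhd2 arrays), with same-numbered replicates paired within each experiment. The comparison uses 10 of the 14 arrays of the study: 2 of the set1 deletion, 2 of WT-set1, 3 of the jhd2 deletion and 3 of WT jhd2. The other 4 belong to a JHD2 overexpression experiment. The design asks which effects of Jhd2 are related to methylation of lysine 4 of histone H3 (H3K4) and which are not.

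Set1 is the catalytic subunit of COMPASS, the complex that carries out all H3K4 methylation in this yeast. Jhd2 is the JmjC-domain enzyme that takes methyl groups off that lysine. H3K4 methylation marks the start of transcribed genes, and its loss is known to affect silencing near telomeres and the repression of some inducible genes, among them the phosphatase gene PHO5.

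The set1 deletion strain carries set1::KanMx together with his3-1, leu2-0, met15-0 and ura3-0. Its partner WT-set1 is listed with his3∆1, le2∆0 (spelled so in the labels), lys2∆0 and ura3∆0, and as TRP+, Met15+ and ADE+. The jhd2 deletion strain carries jhd2::KanMX on his3∆1, le2∆0, lys2∆0 and ura3∆0, and WT jhd2 has those 4 alleles and is listed as TRP+, MET15+ and ADE+. The KanMX cassette is thus in both deletions and in neither wild type, and the methionine and lysine markers differ within the SET1 experiment. Cultures grew at 30 °C and were collected at an optical density of 0.6 to 0.7. Each group is 1 strain, the labels call its replicates biological, and p-values measure only the spread between these arrays.

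Values are MAS5 signals, Affymetrix intensities per probe set, which by their values had been scaled to a common mean on each array. Of 5498 probe sets for 1 S. cerevisiae gene, 5459 (5414 genes) passed the filter on dim probe sets and were tested. The background of an array is the 95th percentile of its Schizosaccharomyces pombe probe sets. It was 16.7 and 13.1 on jhd2 deletion replicates 1 and 2, against 7.77 to 11.5 on the other 8 arrays. The 3'/5' control ratio, a sign of RNA quality, was log2 1.33 on jhd2 deletion replicate 3 and 1.5 on WT jhd2 replicate 3, against 0.54 to 0.85 elsewhere. The jhd2 deletion change of that pair did not follow those of the other 2 pairs, with r = -0.05 and -0.19 across probe sets, while pairs 1 and 2 correlated at 0.45. The 2 set1 deletion pairs correlated at 0.50. Counts below are also given without single pairs.

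The deleted and marker genes gave 4 of the 10 calls in the difference between the changes. SET1 (YHR119W) read 1.13 and 3.31 in the set1 deletion, against 575.4 and 395.4 in WT-set1, 545.1, 644.8 and 701.2 in the jhd2 deletion, and 626.6, 635.5 and 549.1 in WT jhd2. It was at or above 395.4 on every array but those of its own deletion. SET1 was at least 47.4-fold lower in the set1 deletion than in WT-set1. JHD2 (YJR119C) had 3.22, 3.41 and 0.23 on the jhd2 deletion arrays, against 138.2, 118.8 and 139.8 in WT jhd2, a loss of at least 11.1-fold. Its signals were 209.1 and 166.8 in the set1 deletion, against 160.9 and 147.3 in WT-set1. The log2 change was 0.28 ± 0.44 (SE), with 0.38 and 0.18 in the 2 pairs, and did not pass (adjusted p = 0.796). That error is shared over all 5 pairs, including those with jhd2 deletion signals below background. The test therefore cannot decide whether JHD2 changed in the set1 deletion. Each loss of signal is seen only on the arrays of its own deletion.

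MET17 (YLR303W), which the genotypes call MET15 and which encodes a sulfhydrylase of methionine synthesis, read 5.07 and 1.58 in the set1 deletion, against 3528 and 3514 in WT-set1, at least 350.1-fold lower. LYS2 (YBR115C), for aminoadipate reductase of lysine synthesis, read 1307 and 1567 in the set1 deletion, against 10.0 and 2.94 in WT-set1, at least 136.8-fold higher. In the JHD2 deletion experiment MET17 lay at 2712 to 2808 in the deletion and 2833 to 2865 in WT jhd2, and LYS2 at 5.23 to 17.2 and 6.70 to 8.29. Both follow the alleles in the genotypes, so the set1 deletion change also holds marker differences that the jhd2 deletion change does not. What part they have in the results below was not tested. HIS3 rose in the set1 deletion (log2 0.51 ± 0.10, adjusted p = 0.0404), and its difference from the jhd2 deletion change did not pass (0.59 ± 0.12, adjusted p = 0.123). ADE2 did not pass, LEU2 was near background on most arrays, and URA3 and TRP1 had no named probe set.

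**Figure D1:**
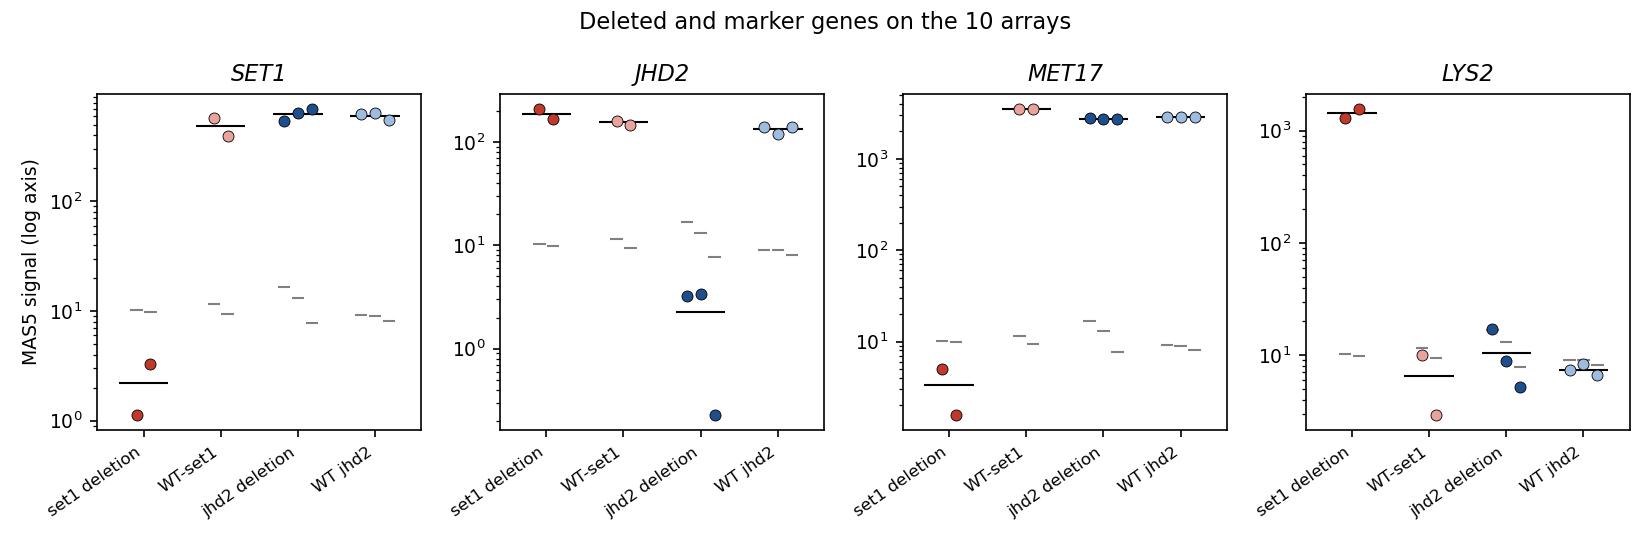
MAS5 signal (log axis) of SET1, JHD2, MET17 and LYS2 on each array of the set1 deletion, WT-set1, the jhd2 deletion and WT jhd2; black bars are group means and grey bars the background of each array. SET1 and MET17 lie below background on the set1 deletion arrays and JHD2 on the jhd2 deletion arrays, and LYS2 lies far above background on the set1 deletion arrays only.

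The 2 changes differed in 10 probe sets of 5459 (0.183%, adjusted p under 0.05, limma with Benjamini-Hochberg adjustment), with the set1 deletion change higher in 3 (0.055%) and lower in 7 (0.128%). Without the deleted genes and markers, 6 genes remained: YNR064C higher, and PHM8, TPO2, AFB1, SPL2 and FDC1 lower. All 6 passed in the set1 deletion change as well, while their jhd2 deletion changes lay between -0.05 and 0.19 on the log2 scale and did not pass. Leaving out pair 1 or 2 of the SET1 experiment gave 3 and 7 calls. Leaving out pair 1 or 2 of the JHD2 deletion experiment, the pairs with high background, gave 9 and 7 calls. Leaving out pair 3 gave 141 (53 higher and 88 lower). Of the calls in these 3 fits, 8, 7 and 10 were among the 10 reported. Without a replicate block 5 were called. At an unadjusted p under 0.05 there were 778 probe sets (14.3%).

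PHM8 and SPL2 belong to the phosphate (PHO) regulon, the genes induced when phosphate is scarce. PHM8 (YER037W), a lysophosphatidic acid and nucleotide phosphatase, had signals of 162.0 and 367.8 in the set1 deletion, against 494.9 and 993.7 in WT-set1. It had 417.4, 247.0 and 416.9 in the jhd2 deletion, against 468.4, 267.5 and 379.5 in WT jhd2. Both set1 deletion arrays lay below both WT-set1 arrays, and the JHD2 groups overlapped. PHM8 fell 2.87-fold in the set1 deletion, and the difference between the log2 changes was -1.47 ± 0.17 (SE, 2 pairs against 3, adjusted p = 0.0130). SPL2 (YHR136C), which restrains low-affinity phosphate uptake, had 869.1 and 884.9 in the set1 deletion, against 1839 and 2416 in WT-set1. In the other experiment it had 1856, 1834 and 720.5 in the jhd2 deletion, against 1712, 1724 and 845.8 in WT jhd2. Replicate 3 was low in both JHD2 groups, which overlapped, while the SET1 groups stood apart. The SPL2 difference was -1.26 ± 0.16 (adjusted p = 0.0283). Neither PHM8 nor SPL2 passed without pair 1 or without pair 2 of the SET1 experiment, nor without the replicate block, and SPL2 did not pass with the block over all 14 arrays, with no intensity trend or without pair 2 of the JHD2 deletion experiment.

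The whole PHO list had a median log2 change of -0.26 in the set1 deletion and 0.02 in the jhd2 deletion. Of its 22 tested members 2 were called, both lower, 13 had an unadjusted p under 0.05 and 16 had a negative difference. Over all probe sets 0.183% were called, 14.3% had such a p and 55.3% were positive. Called members numbered 0 without either SET1 pair, 1 without pair 2 and 6 without pair 3 of the JHD2 deletion experiment. The median difference was -0.36, against 0.03 over all probe sets tested. The list median was -0.26 and -0.31 in the 2 set1 deletion pairs and between -0.06 and 0.03 in the 3 jhd2 deletion pairs. PHO5, the repressible acid phosphatase, had 893.2 and 949.7 in the set1 deletion, against 1337 and 1851 in WT-set1, and its difference of -0.83 ± 0.18 did not pass (adjusted p = 0.123). VTC4, a subunit of the polyphosphate polymerase, was at -0.54 ± 0.13 (adjusted p = 0.15).

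TPO2 (YGR138C), a polyamine exporter of the plasma membrane, had signals of 741.2 and 773.4 in the set1 deletion, against 2108 and 1786 in WT-set1. It had 3392, 2190 and 2192 in the jhd2 deletion, against 3145, 1937 and 2281 in WT jhd2. The set1 deletion arrays were the lowest of the 10, and the JHD2 groups overlapped. TPO2 fell 2.56-fold in the set1 deletion, with a difference of -1.43 ± 0.14 (adjusted p = 0.00460). A second TPO2 probe set, which matches related sequences, gave -0.86 ± 0.16 and did not pass (adjusted p = 0.0964). With only the brightest probe set per gene, the called probe set was left out and TPO2 was not called. The call was lost without pair 1 of the SET1 experiment, without the replicate block and with no intensity trend.

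YNR064C, an epoxide hydrolase gene, was the one of the 6 that was higher. Its signals were 181.2 and 231.3 in the set1 deletion, against 41.5 and 45.3 in WT-set1, and 21.7, 25.0 and 21.7 in the jhd2 deletion, against 19.9, 25.2 and 24.3 in WT jhd2. Both set1 deletion arrays lay above all other arrays. YNR064C rose 4.72-fold in the set1 deletion, and the difference of 2.25 ± 0.30 passed (adjusted p = 0.0387). FDC1 (YDR539W), a ferulic acid decarboxylase gene, had 376.8 and 405.4 in the set1 deletion, against 638.8 and 746.2 in WT-set1. It had 686.5, 702.0 and 811.7 in the jhd2 deletion, against 634.2, 657.6 and 627.1 in WT jhd2. FDC1 is the one of the 6 with no overlap in either experiment, low in the set1 deletion and higher in the jhd2 deletion, whose own log2 change of 0.19 ± 0.09 did not pass (adjusted p = 0.826). The FDC1 difference was -1.01 ± 0.14 (adjusted p = 0.0453). YNR064C and FDC1 lost their calls without either SET1 pair, without pair 1 or pair 2 of the JHD2 deletion experiment, and without the replicate block. FDC1 also lost its call with the block over all 14 arrays, with no intensity trend and with the brightest probe set per gene.

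**Figure D2:**
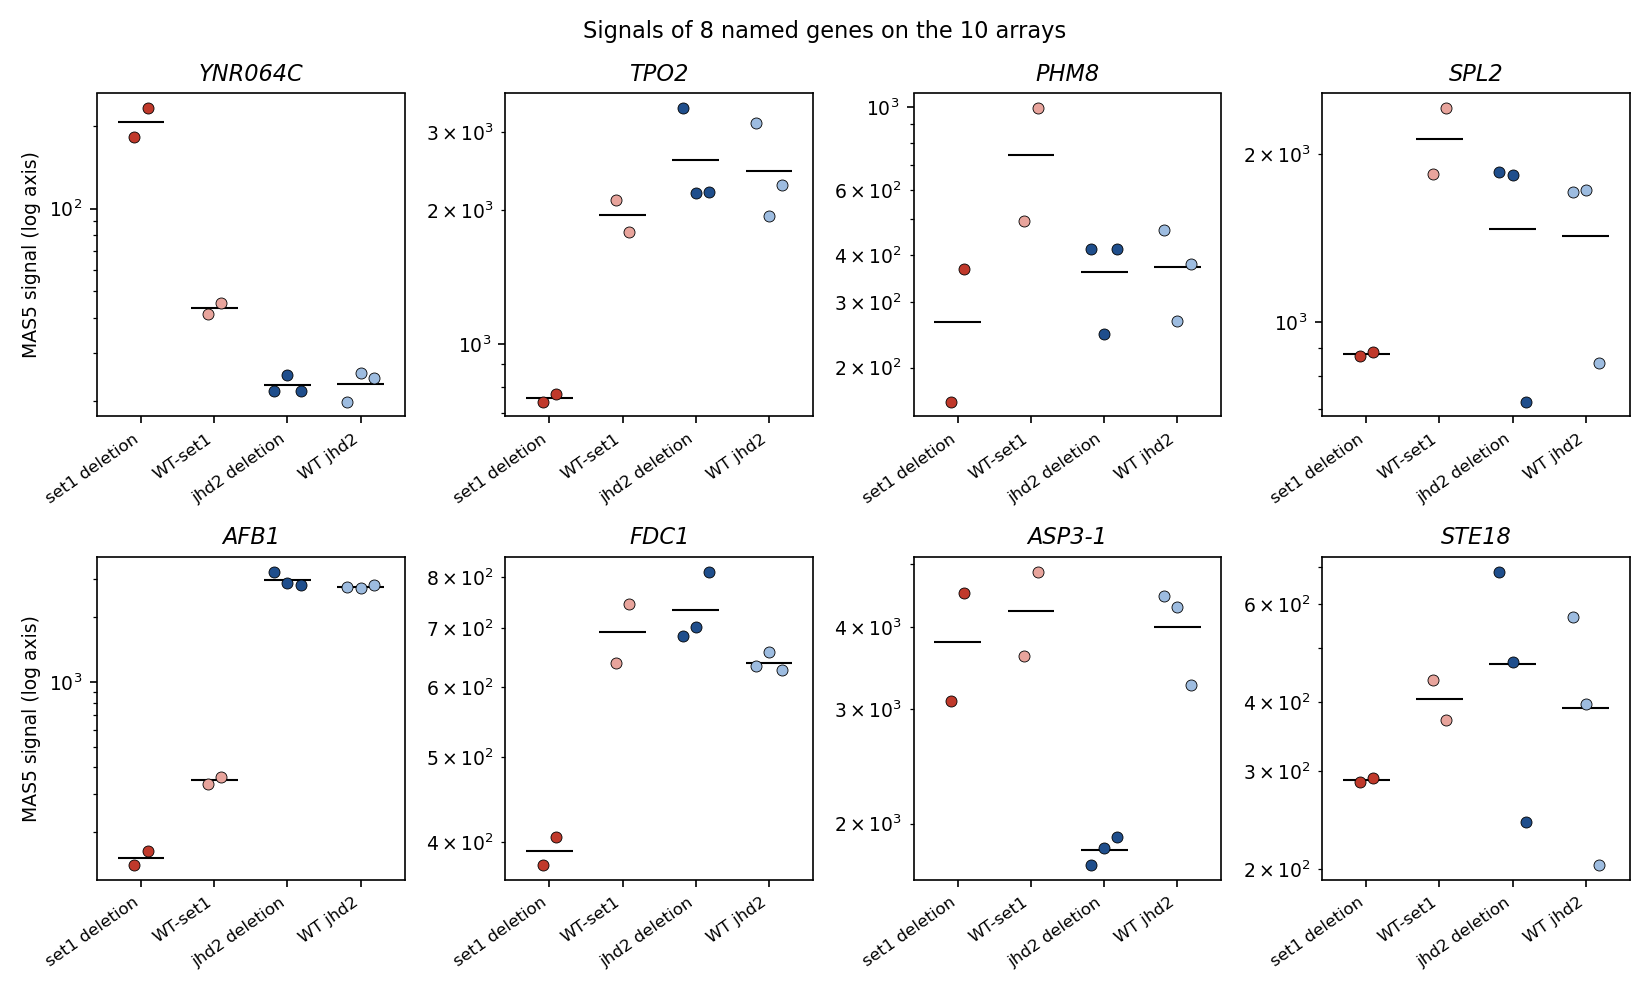
MAS5 signal (log axis) of 8 genes on each array of the set1 deletion, WT-set1, the jhd2 deletion and WT jhd2; points are arrays and bars group means. For the first 6 genes the set1 deletion stands apart from WT-set1; ASP3-1 is lower in the jhd2 deletion than in WT jhd2, and STE18 is lower in the set1 deletion only, without passing.

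AFB1 (YLR040C), a barrier to the a-factor pheromone that is transcribed in alpha cells, had 140.2 and 163.3 in the set1 deletion, against 334.6 and 361.4 in WT-set1. Its signals were far higher in the other experiment, at 3252, 2876 and 2828 in the jhd2 deletion and 2760, 2724 and 2830 in WT jhd2. The SET1 groups stood apart and the JHD2 groups overlapped. AFB1 fell 2.30-fold in the set1 deletion, with a difference of -1.30 ± 0.12 (adjusted p = 0.00445), and the call was lost only without pair 1 of the SET1 experiment among the 17 alternatives. The 2 experiments read as opposite mating types. The 7 a-specific genes had median signals of 1047 in the set1 deletion and 1141 in WT-set1, and of 38.6 in the jhd2 deletion and 30.9 in WT jhd2. The 5 alpha-specific genes had 130.5 and 123.7 in the set1 deletion and WT-set1, and 3647 and 3492 in the jhd2 deletion and WT jhd2. Mating type and the deleted gene cannot be told apart in the difference between the changes.

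Mating genes were therefore compared at unlike levels. The alpha-factor genes MF(ALPHA)1 and MF(ALPHA)2 rose in the set1 deletion, by log2 1.06 ± 0.12 and 1.09 ± 0.16 (adjusted p = 0.00925 and 0.0188), at levels near background in WT-set1. MF(ALPHA)1 had 28.4 and 24.1 in the set1 deletion, against 13.4 and 11.8 in WT-set1. It lay at 5932 to 6919 in the jhd2 deletion, against 5520 to 6343 in WT jhd2. Neither difference passed (0.92 ± 0.16 with adjusted p = 0.0710, and 0.99 ± 0.21 with adjusted p = 0.123). All 7 a-specific genes had a negative difference, with a median of -0.37, 0 called by limma and 2 at an unadjusted p under 0.05. Over all probe sets 14.3% had such a p and 55.3% were positive. The median change of these 7 genes was -0.08 in the set1 deletion and 0.32 in the jhd2 deletion. The larger part of the difference thus lay in the jhd2 deletion, whose pairs gave 0.33, 0.25 and 0.01. The a-specific signals were low in both JHD2 groups, as given above. MFA1, for a-factor, was at -0.89 ± 0.21 (adjusted p = 0.162). Among 31 genes of pheromone signalling in haploids 0 were called and 6 had an unadjusted p under 0.05. SST2, the regulator that switches the pheromone G protein off, was nearest (-0.67 ± 0.12, adjusted p = 0.0964).

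The set1 deletion change held 118 called probe sets (2.16%), 56 higher (1.03%) and 62 lower (1.14%). The jhd2 deletion change held 2 (0.0366%), both lower, from the same fit. The count for the set1 deletion was 6 and 7 without pair 1 and pair 2 of the SET1 experiment and 399 without pair 3 of the JHD2 deletion experiment, and 6 without the replicate block. The count for the jhd2 deletion was 1 without pair 1 of its experiment or either SET1 pair, and 270 (236 higher and 34 lower) without pair 3. The median size of a change over all probe sets was 0.15 in the set1 deletion and 0.09 in the jhd2 deletion on the log2 scale, against median standard errors of 0.14 and 0.11. Single pairs had spreads (SD across probe sets, targets and markers left out) of 0.35 and 0.40 in the set1 deletion and 0.26 to 0.29 in the jhd2 deletion.

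No gene was called in both changes. Across the 5459 probe sets the changes correlated weakly (Pearson r = 0.14, Spearman rho = 0.13). Pearson r was 0.18 without SET1, JHD2, MET17 and LYS2. These values describe probe sets that share arrays and are not independent replicates. The jhd2 deletion pairs correlated with each other at only 0.45, -0.05 and -0.19, so a weak correlation cannot decide whether the 2 deletions act alike. Set side by side, the 55 probe sets called higher in the set1 deletion (deleted genes and markers left out) had a median of 0.92 there and of 0.00 in the jhd2 deletion, where 28 were positive and 27 negative. The 60 called lower had medians of -0.81 and -0.08, with 14 positive and 46 negative in the jhd2 deletion. Over all probe sets 37.6% were positive in the jhd2 deletion and 55% in the set1 deletion. In none of these 115 was the jhd2 deletion change the larger in size, and 6 of them were called in the difference. The set1 deletion change chose these probe sets, so its values are a description.

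**Figure D3:**
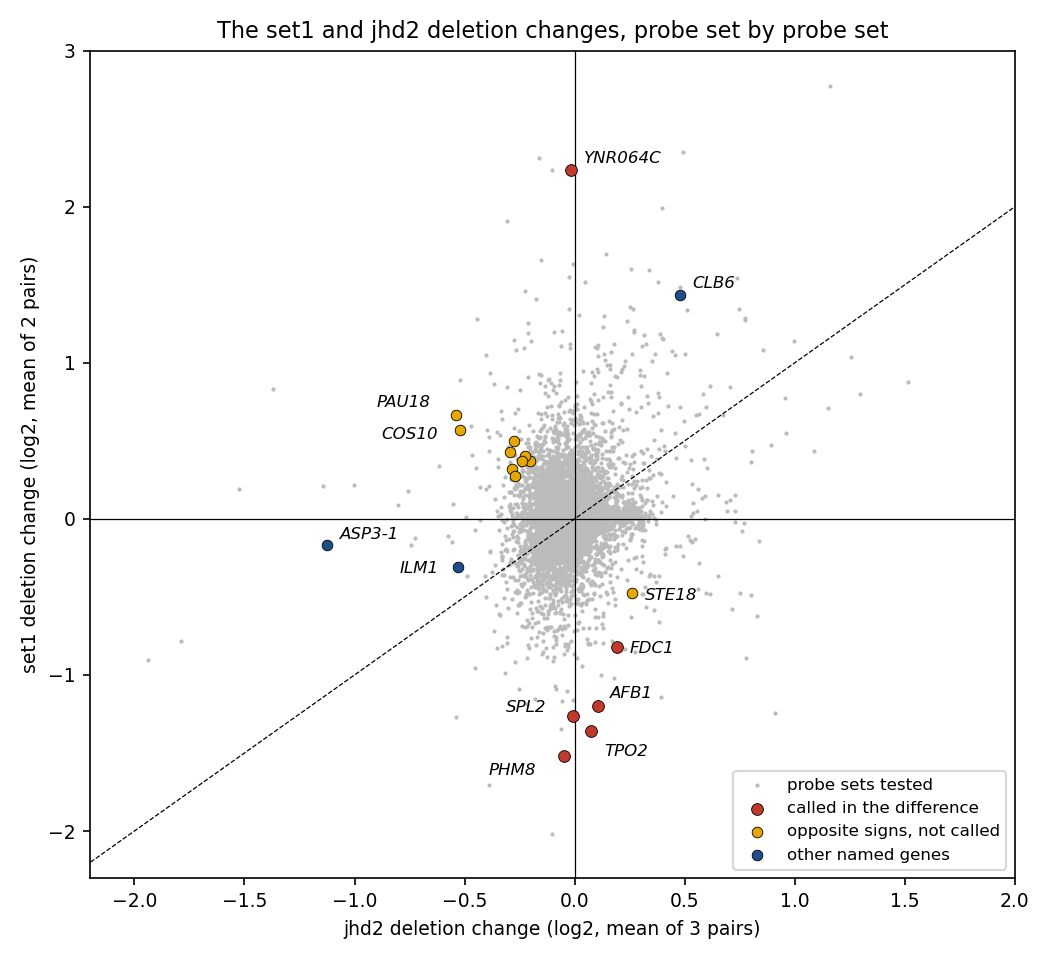
Set1 deletion change (vertical, mean of 2 pairs) and jhd2 deletion change (horizontal, mean of 3 pairs), both log2, for the tested probe sets, with SET1, JHD2, MET17 and LYS2 outside the axes and left out; the dashed line marks equal changes. The 6 called genes lie within 0.19 of zero on the horizontal axis, and the genes of opposite sign lie near the centre.

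A gene may mirror the other deletion, higher in one and lower in the other. At an unadjusted p under 0.05, which 20.2% of probe sets reached in the set1 deletion change and 4.98% in the jhd2 deletion change, 80 passed in both. Of these, 15 were higher in both, 41 lower in both, 21 higher in the set1 deletion and lower in the jhd2 deletion, and 3 the reverse. The 10 mirrored genes named by the rule (smallest values of the larger of both p) had differences of 0.54 to 1.20 in size, and none passed. TAF11, a subunit of the general factor TFIID, had 908.8 and 812.0 in the set1 deletion, against 662.6 and 556.2 in WT-set1. It had 474.7, 572.5 and 674.3 in the jhd2 deletion, against 615.0, 710.9 and 741.0 in WT jhd2. The JHD2 groups overlapped. Every pair pointed the same way within its experiment, which the choice by small p in both changes favours. The TAF11 difference of 0.77 ± 0.13 did not pass (adjusted p = 0.0710). MOG1, which assists nuclear import through Ran, was at 0.72 ± 0.14, and the subtelomeric genes PAU18 and COS10 at 1.20 ± 0.26 and 1.09 ± 0.26. PAU18 is read by a probe set that matches related sequences.

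STE18, the gamma subunit of the pheromone G protein, was the only mirrored gene of the 10 with the lower value in the set1 deletion. It had 286.7 and 292.5 in the set1 deletion, against 438.1 and 370.7 in WT-set1, and 687.4, 472.4 and 243.2 in the jhd2 deletion, against 569.6, 396.5 and 203.2 in WT jhd2. The JHD2 groups overlapped, yet each of the 3 jhd2 deletion arrays lay above its own partner, by log2 0.25 to 0.27. The difference of -0.74 ± 0.16 did not pass (adjusted p = 0.123). The remaining genes of opposite sign were MRPL33 of the mitochondrial ribosome, the mitochondrial GTP carrier GGC1, the exosome subunit RRP40, the cytochrome oxidase assembly factor COA3 and ADD37, and their differences lay at 0.54 to 0.63.

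On the jhd2 side, 1 gene besides JHD2 was called. ASP3-1 (YLR155C), a cell-wall asparaginase in a repeated cluster whose copies this probe set cannot separate, had 1726, 1837 and 1906 in the jhd2 deletion, against 4474, 4299 and 3258 in WT jhd2. It had 3085 and 4522 in the set1 deletion, against 3615 and 4870 in WT-set1. The JHD2 groups stood apart and the SET1 groups overlapped. ASP3-1 fell 2.18-fold in the jhd2 deletion (adjusted p = 0.0272). The call was lost without the replicate block, with no intensity trend, without either SET1 pair and without pair 1 or pair 2 of the JHD2 deletion experiment (adjusted p up to 0.275). The difference between the changes was 0.96 ± 0.19 and did not pass (adjusted p = 0.101). ILM1, the chromosomal neighbour of JHD2, was lower in every pair of both experiments, with -0.31 ± 0.09 in the set1 deletion and -0.53 ± 0.07 in the jhd2 deletion (adjusted p = 0.110 and 0.0730), and a difference of 0.23 ± 0.11 (adjusted p = 0.430). The neighbours of SET1, ORC6 and MSH1, did not pass.

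A further 33 probe sets had an adjusted p for the difference between 0.05 and 0.1. The nearest on the higher side were NNF1, for a kinetochore subunit (1.38 ± 0.20), ACM1, an inhibitor of the anaphase-promoting complex (0.94 ± 0.14), the hypoxic translation factor gene ANB1 (0.94 ± 0.14) and DMA2, a mitotic ubiquitin ligase (0.94 ± 0.14), each with adjusted p = 0.0530. NNF1 had 744.6 and 642.5 in the set1 deletion, against 353.9 and 208.4 in WT-set1, and 254.1 to 352.1 in the jhd2 deletion, against 243.8 to 340.4 in WT jhd2. ATR1, a multidrug exporter, stood at 1.69 ± 0.26 (adjusted p = 0.0556), FMP23 at 1.35 ± 0.21 (adjusted p = 0.0574) and YGR079W at 1.64 ± 0.27 (adjusted p = 0.0689). RNR3 and HUG1, a subunit and an inhibitor of ribonucleotide reductase, were at 1.29 ± 0.20 and 1.59 ± 0.27 (adjusted p = 0.0608 and 0.0756). Their list, DNA damage and ribonucleotide reductase, held 0 calls in 25 probe sets. Its median difference was -0.05, with 15 negative and 3 at an unadjusted p under 0.05. Over all probe sets 14.3% had such a p and 55.3% were positive. The nearest on the lower side were YNL040W (-0.81 ± 0.12, adjusted p = 0.0530), YER053C-A and FIT3, a cell-wall mannoprotein (-1.06 ± 0.17 and -0.98 ± 0.16, adjusted p = 0.0608 each), and TDA6 and the cyclophilin gene CPR2 (-1.07 ± 0.18 and -0.76 ± 0.13, adjusted p = 0.0689 each). TIS11, which promotes decay of mRNAs under iron shortage, was further from the threshold (-1.28 ± 0.23, adjusted p = 0.0817). TIS11 had 177.0 and 200.5 in the set1 deletion, against 385.9 and 592.9 in WT-set1, and 282.5, 296.9 and 159.4 in the jhd2 deletion, against 238.6, 362.8 and 174.9 in WT jhd2. The rule chose these genes by small p, most of them also by pair differences that do not overlap between the experiments. That choice favours the pattern given next, which is a description. In the genes given here the set1 deletion arrays stood apart from WT-set1 and the JHD2 groups overlapped, with exceptions. The SET1 groups of YER053C-A overlapped too. The JHD2 groups of FMP23 did not overlap, at 141.3 to 163.3 in the jhd2 deletion against 182.2 to 190.9 in WT jhd2. The jhd2 deletion change of FMP23, -0.27 ± 0.13, did not pass (adjusted p = 0.826).

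Of 46 gene lists, 6 held a called member: COMPASS subunits, JmjC-domain proteins, alpha-specific mating, lysine biosynthesis, sulfur and methionine, and the PHO regulon. For 4 of them the called members were only SET1, JHD2, LYS2 or MET17. The other COMPASS subunits did not pass: SPP1, BRE2 and SWD2 were at 0.39 ± 0.21, 0.30 ± 0.21 and 0.20 ± 0.12, and the JmjC gene RPH1 at 0.44 ± 0.17 (adjusted p = 0.313). Lists of H2B ubiquitination and the Paf1 complex, of H3K4-methyl readers and of silencing factors held 0 calls among 13, 22 and 16 probe sets, with 2, 1 and 1 at an unadjusted p under 0.05 and medians of -0.01, 0.00 and 0.12. The outermost protein-coding genes of chromosome arms, a proxy for telomere-near genes, held 0 calls and 18 unadjusted p under 0.05 in 51 probe sets, and a median of -0.07, with 22 positive. Over all probe sets 14.3% had such a p and 55.3% were positive, and the median of these genes turned to 0.06 without pair 3 of the JHD2 deletion experiment. Of the 10 lysine genes tested 8 had a positive difference, the marker LYS2 among them. LYS20, homocitrate synthase, was at 0.68 ± 0.13 (adjusted p = 0.101) and LYS9, saccharopine dehydrogenase, at 0.51 ± 0.13. Neither was called in the difference. Both were called higher in the set1 deletion change (adjusted p = 0.018 and 0.024), the experiment in which the lysine marker differs.

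Larger lists are described by their medians, against 0.03 for the difference over all probe sets, of which 55.3% were positive. Ribosome biogenesis genes had a median difference of 0.22, with 123 of 137 positive, 36 at an unadjusted p under 0.05 and 0 called. Their median was 0.20 in the set1 deletion and -0.02 in the jhd2 deletion, but the 2 set1 deletion pairs gave 0.05 and 0.35, and the median difference was 0.37 without pair 1 and 0.08 without pair 2. PWP2, for a processome subunit, was at 0.59 ± 0.13 (adjusted p = 0.131). Genes of G1/S and S phase had a median of 0.23, with 25 of 32 positive, 7 at an unadjusted p under 0.05 and 0 called, and the cyclin gene CLB6 was at 0.96 ± 0.23 (adjusted p = 0.158), higher in all 5 pairs. Meiosis and sporulation genes, which growing haploid cells do not use, had 0.40, with 39 of 50 positive, 9 at an unadjusted p under 0.05 and 0 called, at median signals of 64.3 in the set1 deletion, 47.8 in WT-set1, 39.0 in the jhd2 deletion and 35.8 in WT jhd2. Their median difference was 0.25 after quantile normalization, where the set1 deletion median went from 0.39 to 0.21. It was 0.23 to 0.45 without a pair, lowest without pair 2 of the JHD2 deletion experiment. If these transcripts rose, more cells carrying them and more RNA per cell cannot be told apart in whole cultures.

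In the kynurenine and NAD list the larger median was that of the set1 deletion: it was -0.27 there and 0.03 in the jhd2 deletion. For the difference, 9 of 13 were negative, 8 had an unadjusted p under 0.05 and 0 were called. The list went both ways, as 3 members were called higher and 3 lower in the set1 deletion change itself. Kynureninase BNA5 was at -0.72 ± 0.14, and the nicotinic acid permease TNA1 at 0.57 ± 0.12 (adjusted p = 0.109 each). In the next 3 lists the larger median was that of the jhd2 deletion. Cytosolic ribosomal proteins had a median difference of -0.21, with 143 of 148 negative, 2 at an unadjusted p under 0.05 and 0 called, and medians of 0.04 in the set1 deletion and 0.25 in the jhd2 deletion. Glycolysis and fermentation (-0.24, 25 of 28 negative) and histones (-0.20, 8 of 11 negative) had medians of 0.22 and 0.20 in the jhd2 deletion.

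These 3 lists of bright genes did not point one way over the jhd2 pairs. For ribosomal proteins the jhd2 deletion pairs gave 0.37, 0.55 and -0.19, for glycolysis 0.32, 0.41 and -0.09, and for histones 0.27, 0.48 and -0.14. Pairs 1 and 2 are those whose deletion arrays had the high background, where the S. pombe probe sets themselves had pair medians of 0.50 and 0.19, and pair 3 is the one with the high 3'/5' ratios. After quantile normalization the ribosomal protein median was -0.01 and the glycolysis median -0.07, and that of histones turned to 0.01. Without pair 3 the ribosomal protein median was -0.43, with 48 called. The part of background and RNA quality in these values was not tested.

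**Figure D4:**
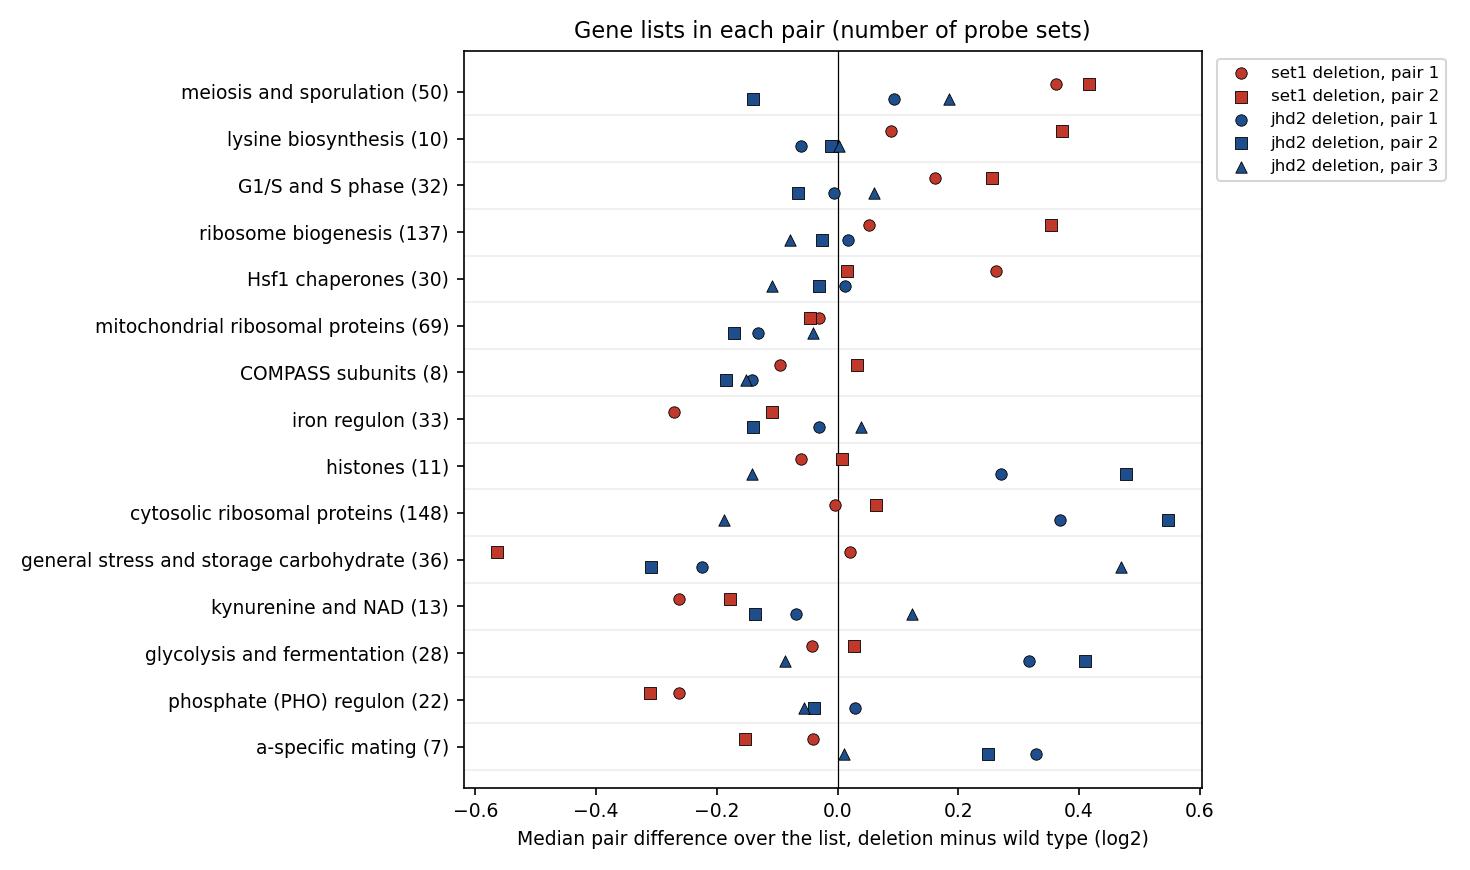
Median pair difference (log2, deletion minus wild type) of 15 gene lists in each of the 2 set1 deletion pairs and 3 jhd2 deletion pairs, with the number of probe sets in brackets. The set1 pairs of the PHO regulon lie at -0.26 and -0.31, away from the jhd2 pairs, while for ribosomal proteins, glycolysis and histones the jhd2 pairs lie on both sides of zero.

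Pair differences show the same data without a model. In 1690 probe sets (31%) the 2 set1 deletion pair differences did not overlap the 3 jhd2 deletion pair differences, lying above them in 1095 (20.1%) and below in 595 (10.9%). After quantile normalization the split was 991 above and 960 below. With only 2 pairs against 3, many probe sets would not overlap even with no difference between the changes. The 31% is therefore not the share of probe sets that truly differ. In the PHO list 12 of 22 lay below and 2 above, in the iron regulon 10 of 33 below and 0 above, and in ribosome biogenesis 55 of 137 above and 0 below.

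**Figure D5:**
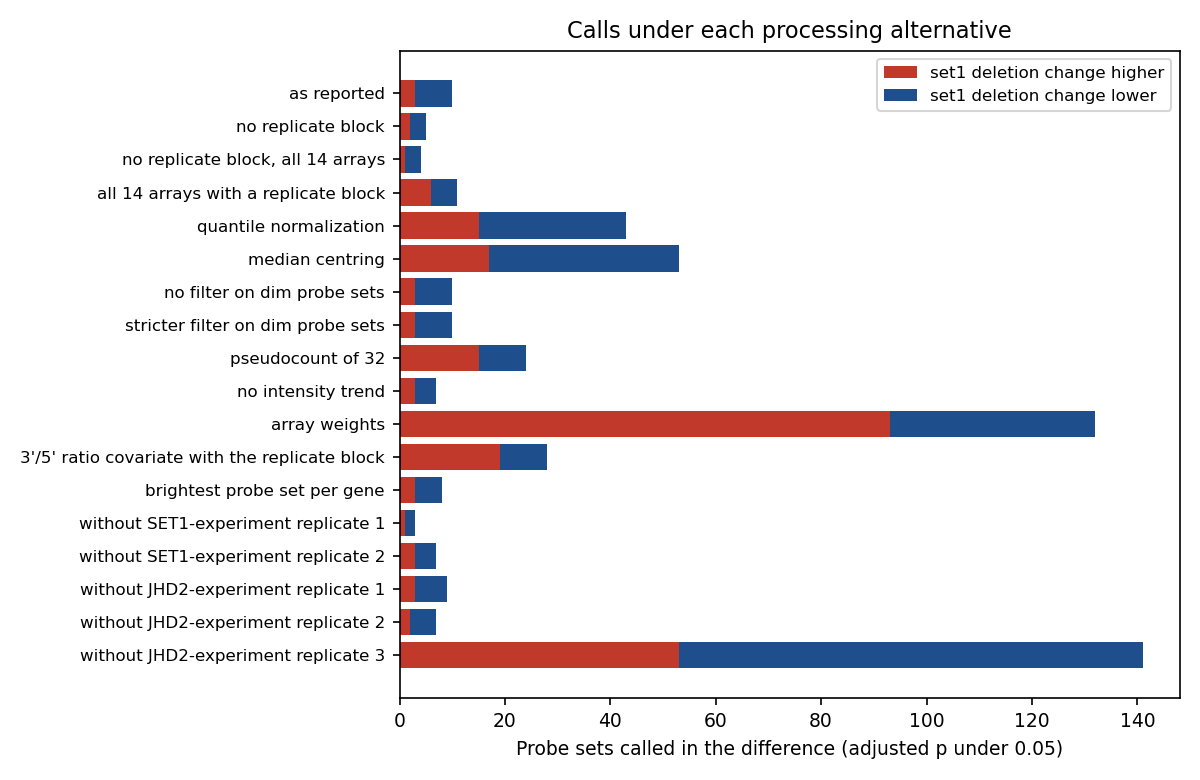
Number of probe sets called in the difference between the changes as reported and under 17 alternatives, split by direction. The count lies between 3 and 141, and it is highest without pair 3 of the JHD2 deletion experiment and with array weights.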

How the data were processed

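RNA of yeast cultures was measured on Affymetrix Yeast 2.0 arrays. The authors deposited one intensity for each probe set and array, made with MAS5, per the submitters' processing notes. No version of MAS5 is given in the sources used here. The mean after trimming 2% at each end was 500.2 to 500.3 on the 10 arrays compared. Of 10928 probe sets, 5498 had 1 S. cerevisiae gene, 1746 were S. pombe, 1 had several genes and 3683 had no name here. Names were matched to RefSeq genes of assembly R64.

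The deposited intensity was floored at 1 and converted to log2. Probe sets were tested where the mean log2 value exceeded the 95th percentile of S. pombe means, which removed 39, and 125 of those tested match related sequences. limma 3.58.1 (R 4.3.3) fitted 5 pair blocks and the strain effect of each experiment, with an intensity trend (3 residual and 5.23 prior degrees of freedom). The difference is the set1 minus the jhd2 effect, tested two-sided, and a call is an adjusted p under 0.05 over all probe sets. Errors of changes are standard errors. "At least" folds set the bright group's mean against the background of the dim group. Deviations of same-numbered arrays correlated at 0.73 in the SET1 experiment, and at 0.64, 0.61 and 0.69 in the JHD2 deletion experiment, so the numbers pair the arrays. On simulated data the fit found 82.6% of differences of log2 1 and 98.6% of log2 2. Of its calls 6.21% were false (5 draws of 200 changed probe sets, independent noise). The simulated pairs were alike in quality and held 200 true changes, so these shares may not hold for the real arrays. In the real data ATR1, with a difference of 1.69, did not pass, so a gene without a call is not shown to be unchanged.

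The comparison, the gene lists and the rule for named genes were chosen with earlier results of these data known. The rule takes the deleted genes, neighbours and markers, the members of smallest p of each list, and 10 genes of opposite sign. It also takes the 12 highest and 12 lowest differences (called, then smallest p). For these the pair differences of the experiments do not overlap. Alternatives were the block, all 14 arrays, normalization, filters, a pseudocount of 32, the trend, array weights, a 3'/5' covariate, 1 probe set per gene, thresholds and leaving out each pair. The number of arrays limits the precision. The overexpression arrays were used only in the alternatives with all 14 arrays.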

Additional observations from a re-analysis of the deposited data

Results flagged for a closer look

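The difference between the set1 deletion change and the jhd2 deletion change passed its own test in 10 genes, with log2 values of -10.23 for MET17, -8.0 for SET1, -1.47 for PHM8, -1.43 for TPO2, -1.30 for AFB1, -1.26 for SPL2, -1.01 for FDC1, 2.25 for YNR064C, 6.17 for JHD2 and 7.71 for LYS2. The first 2 and the last 2 are deleted genes or genotype markers, and their fitted sizes depend on the floor of 1. On the arrays of the overexpression experiment, which are in neither change, JHD2 gave signals of 5207 and 6237, above its level on all 10 arrays compared here. On those arrays, against their own wild type, the log2 values of the 6 other genes were 1.16 for PHM8, 0.62 for TPO2, 0.52 for YNR064C, 0.43 for SPL2, 0.03 for FDC1 and -0.17 for AFB1. The 3'/5' control ratio was log2 1.44 and 1.43 on the overexpression arrays, against 0.88 and 0.66 on their wild type. RNA quality and overexpression cannot be told apart in these 6 values, which were not tested.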

How the results depend on the processing

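The count of 10 calls in the difference stayed within 1.5 times under 8 of 17 alternatives. A like count did not always hold the same genes. The block over all 14 arrays gave 11 calls (6 higher and 5 lower), of which 7 were among the 10. The count was further off under the rest. It was 5 with no replicate block, 4 with no replicate block and all 14 arrays, 43 after quantile normalization, 53 after median centring, 24 with a pseudocount of 32, 132 with array weights (whose fit stopped before convergence) and 28 with the 3'/5' covariate. It was 43 at an adjusted p under 0.1 and 6 at 0.01, and leaving out a pair gave 3 to 141. For the set1 deletion change the count of 118 became 6 and 26 with no replicate block (10 and 14 arrays), 390 after quantile normalization, 371 after median centring, 212 with the pseudocount, 305 with array weights, 321 with the covariate, and 6 to 399 without a pair. For the jhd2 deletion change the count of 2 became 1 with no replicate block, 4 with the block over all 14 arrays, 4 after median centring, 4 with the pseudocount, 472 with array weights, 7 with the covariate, and 1 to 270 without a pair. Lists with a called member, 6 as reported, were 12 after quantile normalization, 14 after median centring and 3 to 22 without a pair. The correlation of the changes was 0.08 to 0.17 without a pair. With 1 SET1 pair left out, the remaining pair is assumed to vary like the JHD2 pairs. Of 2174 values of 128 named genes, 1991 kept their side of the threshold, 35 lost their call and 148 passed only under the alternative. No called value changed sign, and 7 values of 3 genes that never passed (GIS1, ORC6 and SAG1) did. SET1 and MET17 kept their calls under all 17 alternatives, AFB1 under 16, JHD2 and LYS2 under 15, PHM8 under 13, TPO2 under 12 of 16, YNR064C under 11, SPL2 under 10 and FDC1 under 8. The called TPO2 probe set was not in the fit with the brightest probe set per gene, which leaves 16 alternatives for it. The cause of the changes in calls was not tested.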
